A study of Homo sapiens with 6 samples.

Results

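The genes described here are 47 members of the DNA replication and G1/S programme, taken by symbol from a table of 25370 gene rows and read in all 6 libraries. Every one of the 47 symbols had a row, and all 47 passed the low-count filter of the main comparison. They comprise 10 origin-licensing genes, 6 genes of helicase activation, 7 genes of primase and the replicative polymerases, 8 genes of the sliding clamp, its loader and the lagging strand, 3 subunits of the single-strand binding complex, 4 genes of nucleotide synthesis, 4 G1/S regulators and 5 genes of chromatin assembly and replication control.

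The libraries came from human neuroblastoma cell lines, BE2C and Kelly, both of which carry an amplified MYCN oncogene. BE2C cells with forced overexpression of LMO1, a LIM-domain transcriptional co-regulator, gave 2 libraries, and BE2C cells carrying a vector control gave 2. Unmodified parental BE2C cells gave 1 library and Kelly cells gave 1. The study asks how LMO1 works together with MYCN. The labels give neither the vector's promoter nor whether each modified line was a clone or a pool, and they do not say that libraries of a group were separate cultures, so the tests measure only the spread between these libraries.

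DNA replication is prepared in G1, when the origin recognition complex, CDC6 and CDT1 load the MCM2 to MCM7 helicase onto DNA. At the G1/S transition cyclin E and its kinase partner act on RB and release E2F factors, which activate many of the genes needed for S phase. CDC45 and the GINS complex then switch the helicase on, and primase, polymerases, clamp and ligase copy the strands. Rapidly dividing tumour cells, MYCN-amplified neuroblastoma among them, typically express this programme at a high level.

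Depth ran from 18737591 to 59512958 counts per library, and the members took 0.373% to 0.604% of them. Levels are CPM, each count relative to the size of its library, scaled by TMM over all 6 libraries. LMO1 itself was at 6.55 and 5.85 CPM in the LMO1 libraries, 1.05 and 0.926 CPM with vector, 1.93 CPM in parental cells and 94.1 CPM in Kelly. MYCN was at 1636 and 1558 CPM with LMO1, 1651 and 1666 CPM with vector, 1612 CPM in parental cells and 2066 CPM in Kelly. Among the 12 sympathetic neuroblastoma markers, PHOX2A, HAND2 and ISL1 were at 72.7 CPM or more in every library. GATA3 was at 61.8 to 73.2 CPM in the modified libraries, 267 CPM in parental cells and 170 CPM in Kelly. With LMO1, 5 of the 12 were higher and 4 lower than with vector (edgeR adjusted p below 0.05). Over all genes tested these shares were 15.9% and 15.1%. Of the catecholamine enzymes, TH was at 5.24 and 6.21 CPM with LMO1 and 1.70 and 1.53 CPM with vector. Parental cells had 3.08 CPM of TH and Kelly 405 CPM. DBH was at 13.4 to 89.8 CPM in the BE2C libraries, against 873 CPM in Kelly. Blood-cell markers summed to between 6.76 and 8.94 CPM, nearly all from CD68 and with CD3E and HBB at 0. The 10 fibroblast and endothelial markers summed to 102 to 110 CPM in the modified libraries, 192 CPM in parental cells and 167 CPM in Kelly. COL1A2 and PECAM1 were below 0.1 CPM throughout, so other genes of the list carried these sums. The 7 that were tested had log2 fold changes from -2.35 to 1.68 with LMO1. Schwann and melanocytic markers summed to 2.70 to 4.18 CPM in the modified libraries, 6.82 CPM in parental cells and 24.7 CPM in Kelly. The parental and Kelly libraries stood apart in their histone content. The 72 replication-dependent histone genes summed to between 10161 and 12161 CPM in the 4 modified libraries, to 431 CPM in the parental library and to 138 CPM in Kelly. Every comparison that uses either of those 2 libraries therefore sets side by side libraries that differ in this respect, although parental and vector cells are the same line and the labels give all libraries the same preparation. Whether RNA selection or library preparation differed was not tested, nor was the part of the histone and marker sums in the members' ratios.

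**Figure D1:**
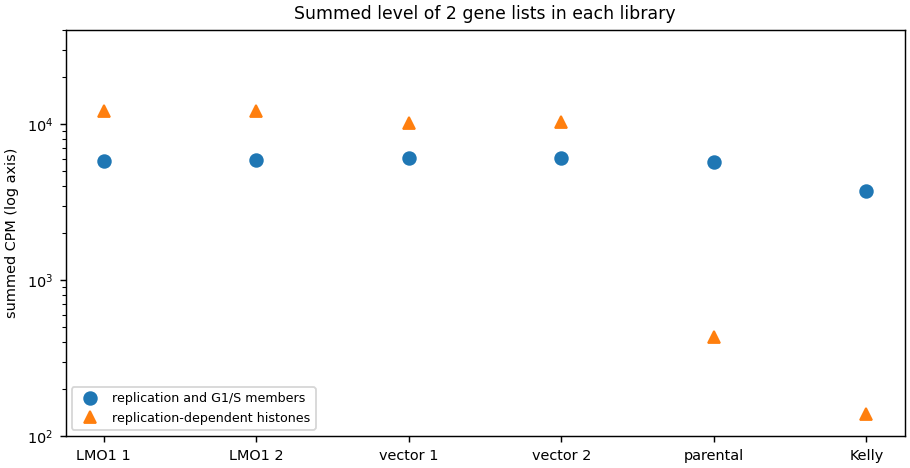
Summed level in CPM (log axis) of the 47 members (circles) and of the 72 replication-dependent histone genes (triangles) in each of the 6 libraries. The members summed to 5705 to 6078 CPM in the 5 BE2C libraries and to 3725 CPM in Kelly, while the histone sum was below 500 CPM in the parental and Kelly libraries only.

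The first comparison asks what forced LMO1 did to these genes in BE2C. With LMO1, 6 of the 47 members were lower than with vector and 0 were higher by edgeR's quasi-likelihood test (adjusted p below 0.05 over 15480 genes). The 6 were the helicase subunits MCM2, MCM4, MCM5 and MCM7, the catalytic polymerase alpha subunit POLA1 and the checkpoint mediator CLSPN. All of these differences were small: relative to vector, MCM4 fell by 5.90% and CLSPN fell by 16.3%, and the other 4 lay between. In bulk RNA, fewer cells in S phase and less RNA per cell cannot be told apart. Over all genes tested, 15.1% were called lower and 15.9% higher, so the share of members called lower was near the background and the count called higher was below it. At an unadjusted p under 0.05, edgeR gave 3 members higher and 10 lower. No share over all genes is given at that threshold, so these counts do not show a leaning of the set. DESeq2 and limma-voom each called 0 members higher, where over all 15480 genes they called 1539 and 2440 higher.

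MCM7, a core subunit of the replicative helicase, was at 427 and 422 CPM with LMO1 and at 505 and 495 CPM with vector. The groups did not overlap, and MCM7 fell by 0.23 on the log2 scale (SE 0.0288, edgeR adjusted p = 1.03e-08). MCM5 was at 226 and 216 CPM against 245 and 246 CPM, a log2 fold change of -0.14 (SE 0.0352, edgeR adjusted p = 0.0012). MCM2 was at 313 and 320 CPM against 353 and 344 CPM, a log2 fold change of -0.13 (SE 0.0313, edgeR adjusted p = 0.000877). Both LMO1 libraries lay below both vector libraries for each of these helicase genes, as for 32.4% of all genes tested. The calls came from the same libraries, so this order adds no separate support. CLSPN, which carries the replication stress signal to CHEK1, was at 47.2 and 48.2 CPM with LMO1 and at 56.1 and 58.4 CPM with vector. It fell by 0.26 (SE 0.0654, edgeR adjusted p = 0.00189), the largest fall of any member.

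MCM4 and POLA1 were nearer the threshold. MCM4 was at 387 and 386 CPM with LMO1 and at 421 and 405 CPM with vector, a log2 fold change of -0.09 (SE 0.0302, edgeR adjusted p = 0.0223). Its call was lost without vector replicate 1 (log2 -0.06, edgeR adjusted p = 0.345), and over its 12 alternatives the adjusted p ran from 0.00523 to 0.345. POLA1 was at 108 and 117 CPM against 120 and 125 CPM, a log2 fold change of -0.12 (SE 0.0463, edgeR adjusted p = 0.0424). POLA1 was no longer called without LMO1 replicate 1 (log2 -0.07, edgeR adjusted p = 0.471), without vector replicate 1 (log2 -0.15, edgeR adjusted p = 0.0544) or without vector replicate 2 (log2 -0.10, edgeR adjusted p = 0.278). DESeq2 called neither gene (adjusted p = 0.072 for MCM4 and 0.17 for POLA1). MCM2, MCM5, MCM7 and CLSPN were called lower in all 12 alternatives. No share over all genes is given for that.

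**Figure D2:**
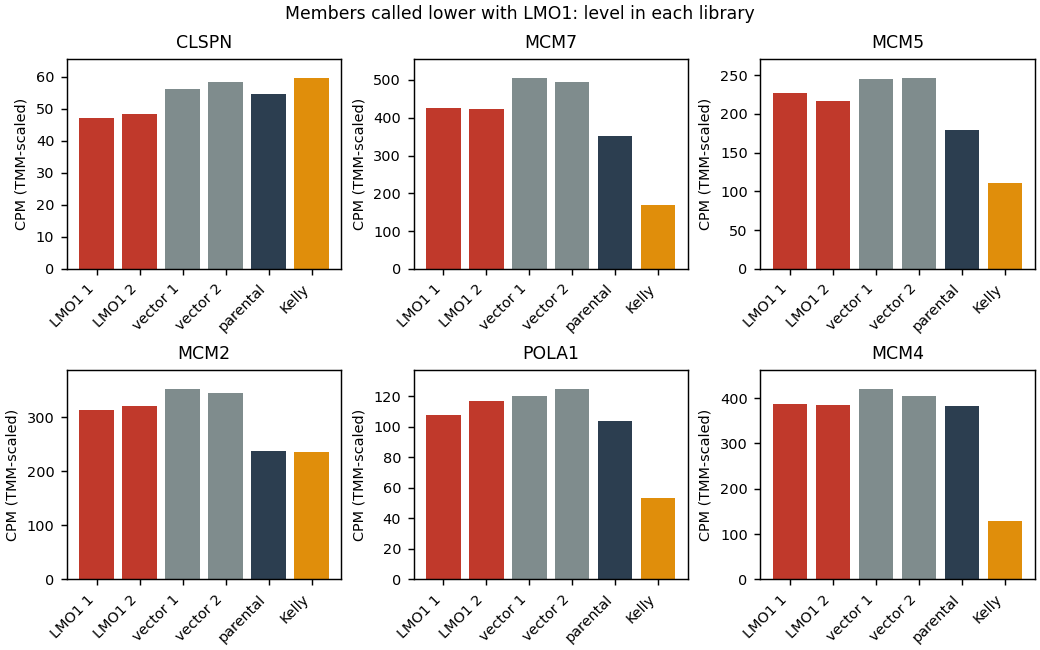
Level in CPM of the 6 members called lower with LMO1, 1 bar per library and each panel on its own axis from 0 (red LMO1, grey vector, dark blue parental BE2C, orange Kelly). In each panel both LMO1 bars are below both vector bars, an order that held for 32.4% of all genes tested. For MCM2, MCM4, MCM5, MCM7 and POLA1 the parental bar lies below the LMO1 bars as well.

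Of the called genes, 4 had an entry among the RefSeq promoter windows (build GRCh38.p14, matched by symbol, first-listed start, 250 bases before to 50 after the start), as did 41 of the 47 members. MCM4, MCM5, GINS4, CCNE2, RPA2 and RPA3 had none. E2F-type octamers (TTTCCCGC, TTTCGCGC, TTTGCCGC or TTTGGCGC, on either strand, overlaps allowed) were found in 22 of the 41 member windows, which is 53.7%, against 4.97% of 10817 tested genes with a window and 3.33% of all 27305 genes with a window. The members were listed in part as E2F targets, so their octamer share is not independent of how the list was made. CCAAT on either strand was in 58.5% of member windows against 36.2% of tested genes, and the hexamers TTTGAA or TTCGAA in 4.88% against 11.4%. Called lower were 4 of the 22 members with an octamer, 0 of the 19 without one and 2 of the 6 with no window, beside 15.1% of all genes tested, and no difference between these was tested. Below, 150 bases before to 20 after the start are printed for those 4 genes, because they are the called members, and for RRM1 and CCNE1, because they had the lowest and the highest ratio in Kelly. Capitals mark the octamers. MCM7 is at chr7:100101378-100101547 (minus strand), MCM2 at chr3:127598261-127598430 (plus), CLSPN at chr1:35769959-35770128 (minus), POLA1 at chrX:24693768-24693937 (plus), RRM1 at chr11:4094535-4094704 (plus) and CCNE1 at chr19:29811841-29812010 (plus).
MCM7: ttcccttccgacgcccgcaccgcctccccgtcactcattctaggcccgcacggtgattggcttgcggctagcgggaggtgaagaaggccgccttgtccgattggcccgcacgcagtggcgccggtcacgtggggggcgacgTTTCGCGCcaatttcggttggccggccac
MCM2: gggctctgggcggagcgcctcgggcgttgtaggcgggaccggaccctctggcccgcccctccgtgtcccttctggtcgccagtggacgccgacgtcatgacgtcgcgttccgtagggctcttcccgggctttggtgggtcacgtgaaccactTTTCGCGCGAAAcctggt
CLSPN: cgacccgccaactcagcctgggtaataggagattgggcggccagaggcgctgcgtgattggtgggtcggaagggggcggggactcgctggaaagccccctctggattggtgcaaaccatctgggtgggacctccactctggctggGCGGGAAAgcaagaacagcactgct
POLA1: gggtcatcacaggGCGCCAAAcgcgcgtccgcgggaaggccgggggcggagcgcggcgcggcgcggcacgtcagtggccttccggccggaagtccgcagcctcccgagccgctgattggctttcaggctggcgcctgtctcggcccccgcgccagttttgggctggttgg
RRM1: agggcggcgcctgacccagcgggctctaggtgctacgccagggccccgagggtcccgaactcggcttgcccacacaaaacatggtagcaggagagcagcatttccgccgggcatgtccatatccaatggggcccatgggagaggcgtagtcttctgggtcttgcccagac
CCNE1: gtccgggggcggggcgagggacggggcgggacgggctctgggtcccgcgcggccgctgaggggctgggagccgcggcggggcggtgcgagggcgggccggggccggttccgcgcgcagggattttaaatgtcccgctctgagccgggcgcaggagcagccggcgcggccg

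In MCM2 the octamer occurs on both strands in 1 overlapping palindrome just after the start, in CLSPN it spans the start, in MCM7 it lies just before it, and in POLA1 it lies near the far end of the printed stretch. MCM7 holds another octamer farther upstream, outside that stretch. The RRM1 and CCNE1 windows held none of the 4 octamers, which says only that these letters are not in the window.

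Among the other licensing genes, MCM3 had nearly equal values in the groups, at 537 and 531 CPM with LMO1 and 540 and 532 CPM with vector (log2 fold change 0.0014, 95% interval -0.05 to 0.06, edgeR adjusted p = 0.979). MCM6 was at 109 and 105 CPM against 110 and 111 CPM (95% interval -0.13 to 0.05). Differences between subunits were not tested. ORC6, a subunit of the origin recognition complex, had a log2 fold change of -0.13 (edgeR adjusted p = 0.1), and was called without vector replicate 2 (log2 -0.19). CDC6 and CDT1, the helicase loaders, had values of -0.06 and -0.01, and ORC1 had 0.03. None of these 4 was called.

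The 6 genes of helicase activation had log2 fold changes from -0.11 (GINS3) to 0.06 (GINS4), and 0 were called in either direction. MCM10, a helicase activator and the highest of them in CPM, was at 110 and 101 CPM with LMO1 and 113 CPM in both vector libraries (log2 fold change -0.10, edgeR adjusted p = 0.122). Apart from POLA1, the primase and polymerase genes ran from -0.19 for the primase subunit PRIM2 (edgeR adjusted p = 0.0608) to 0.07 for its partner PRIM1. PRIM2 has a near-identical partial copy in the genome, so its reads are uncertain, and it was called without LMO1 replicate 1 (log2 -0.28). POLE, the leading-strand polymerase, was at 159 and 157 CPM against 166 and 167 CPM (log2 fold change -0.07, edgeR adjusted p = 0.178).

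The clamp and lagging-strand genes had values on both sides of 0. PCNA, the sliding clamp, was at 233 and 236 CPM with LMO1 and at 218 and 228 CPM with vector, so that the groups did not overlap (log2 fold change 0.08, SE 0.0353, edgeR adjusted p = 0.0866). LIG1, the ligase that joins Okazaki fragments, was at 82.9 and 78.8 CPM against 71.5 and 76.7 CPM (log2 fold change 0.13, SE 0.0554, edgeR adjusted p = 0.0681). Neither passed the main test. Both were called higher when the counts were scaled by library totals only (edgeR adjusted p = 0.0202 for PCNA and 0.0296 for LIG1) or when only genes with at least 5 CPM in 2 libraries were kept (0.0278 and 0.0327). FEN1, which removes flap primers, had a value of -0.10, and the clamp loader subunits RFC1 to RFC5 ran from -0.10 to 0.08.

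Nucleotide synthesis genes showed no call. RRM1, the large ribonucleotide reductase subunit and the member with the highest level per length in BE2C, was at 656 and 684 CPM with LMO1 and 675 and 685 CPM with vector (95% interval of the log2 fold change -0.07 to 0.04). RRM2, its S-phase partner, had a log2 fold change of -0.08 (edgeR adjusted p = 0.158), and thymidine kinase TK1 had 0.05. TYMS, thymidylate synthase, was at only 10.9 and 7.57 CPM with LMO1 and 8.06 and 8.17 CPM with vector, which leaves a wide 95% interval of -0.14 to 0.50. TYMS overlaps the antisense gene ENOSF1. Whether the counting used strand is not stated in the labels, so reads of the 2 genes cannot be told apart.

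The G1/S regulators were likewise not called. E2F1 was at 122 and 124 CPM with LMO1 and 128 and 134 CPM with vector (log2 fold change -0.08, edgeR adjusted p = 0.153). E2F2 was at 49.2 and 53.3 CPM against 46.2 and 46.9 CPM (log2 fold change 0.15, edgeR adjusted p = 0.0971), and was called higher with library totals only (edgeR adjusted p = 0.0498). The cyclins CCNE1 and CCNE2, which activate CDK2 at the G1/S boundary, had log2 fold changes of 0.22 (95% interval -0.20 to 0.65) and 0.11 (-0.07 to 0.30). CCNE1 was at 4.92 and 4.58 CPM with LMO1 and 3.62 and 4.51 CPM with vector, and CCNE2 at 24.8 and 25.05 CPM against 22.5 and 23.7 CPM. Both LMO1 libraries were above both vector libraries for E2F2, CCNE1 and CCNE2, and below them for E2F1. Among the 3 RPA subunits the values ran from -0.06 to 0.11. UHRF1, which guides maintenance DNA methylation, had -0.08 (edgeR adjusted p = 0.086) and was called without LMO1 replicate 1 (log2 -0.14), while the chromatin assembly subunits CHAF1A and CHAF1B had -0.05 and 0.12 and the ubiquitin ligase adaptor DTL had 0.07.

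Over the whole set, 30 members had a negative and 17 a positive log2 fold change, with a median of -0.04 against 0.00083 over all genes tested. Of all 15480 genes tested, 7720 were negative and 7760 positive. Both LMO1 libraries lay below both vector libraries for 22 members and above them for 10, and the rest overlapped. Over all genes tested these orders held for 32.4% and 31.3%. For 44 of 47 members the 95% interval lay within 1.3-fold either way, and for 46 within 1.5-fold, CCNE1 being the exception. These intervals rest on the spread between these libraries only, so they do not bound what separate cultures would show. No share over all genes is given for them.

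**Figure D3:**
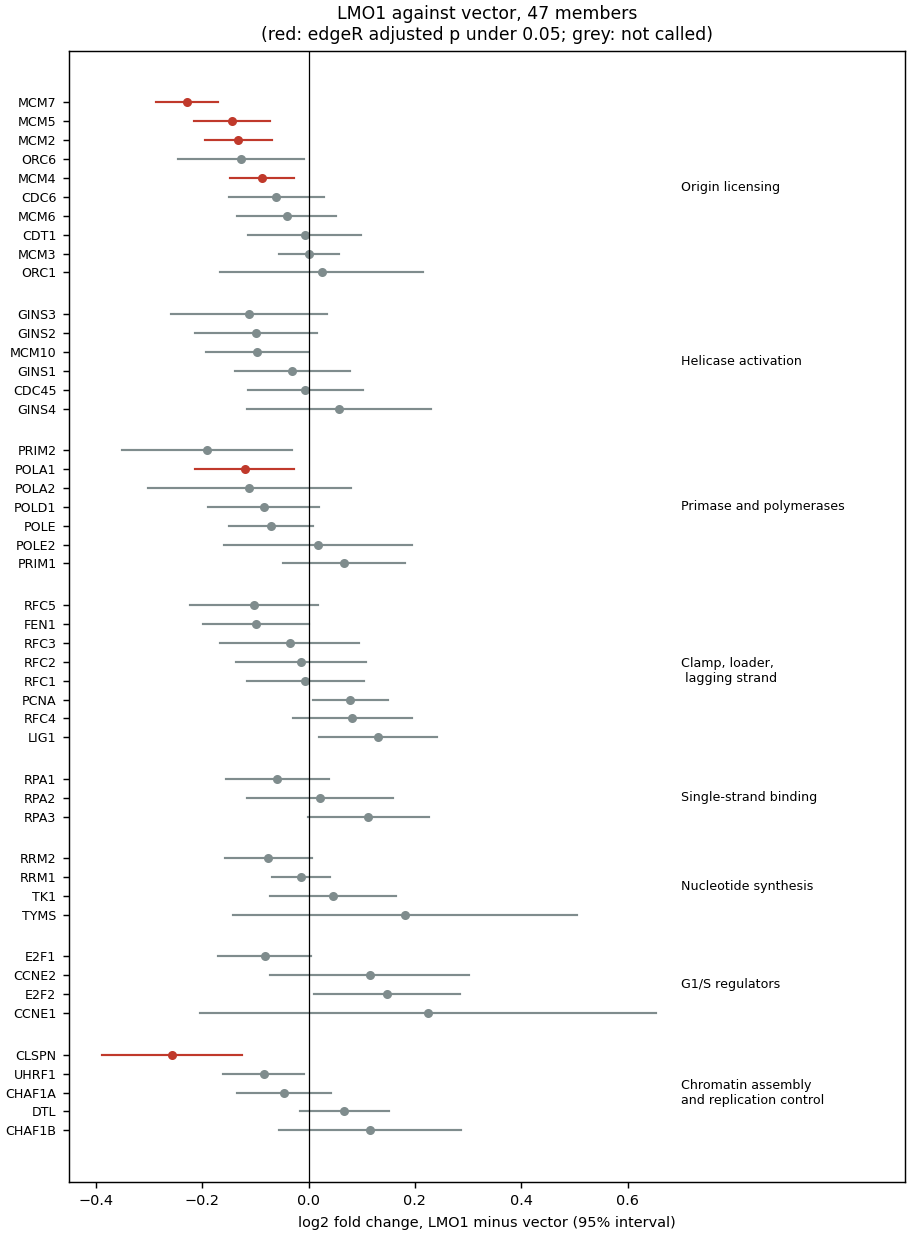
Log2 fold change of LMO1 minus vector for the 47 members (points) with 95% intervals from the edgeR fit (lines), grouped by role, red where the adjusted p is under 0.05. The 6 red members are all on the negative side, and the intervals of CCNE1 and TYMS are the widest.

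Other genes of the same programme were called in both directions, which is read beside the 15.9% higher and 15.1% lower over all genes. Of 40 other replication genes, 4 were higher and 4 lower, a smaller share than over all genes in each direction. TICRR, which helps CDC45 load at origins, fell by 0.36 (edgeR adjusted p = 6.9e-06), while the dUTPase DUT rose by 0.21 (edgeR adjusted p = 1.72e-05) and the histone chaperone ASF1B rose by 0.29 (edgeR adjusted p = 0.00116). Of 31 other E2F, RB and G1/S kinase genes, 6 were higher and 5 lower, with the CDK inhibitor CDKN1A down (log2 -0.22), the G1 kinase CDK6 up (0.16) and the inhibitor CDKN1C up (0.84). The CDKN1C call was lost without LMO1 replicate 2 (log2 0.56, edgeR adjusted p = 0.129) and held in 11 of 12 alternatives. Of 25 S-phase repair and DNA methylation genes, 5 were higher, among them BRCA1 (0.21) and BRCA2 (0.31), and 2 were lower, including the maintenance methyltransferase DNMT1 (-0.21). Mitosis genes gave 5 higher and 7 lower of 45, again near or below the share over all genes, with CENPF (-0.16) and KIF20A (-0.16) down and NUF2 (0.18) up. Replication-dependent histones, whose transcripts are made in S phase, were higher in 44 and lower in 1 of 57 tested, with a median of 0.26. HIST1H3F, for example, was at 386 and 410 CPM with LMO1 and at 250 and 251 CPM with vector. The median over the members was -0.04 in the same fit, and the difference between the lists was not tested.

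The second comparison sets Kelly, another line with far more LMO1 RNA, against parental BE2C. LMO1 level and line cannot be told apart here, and the part of LMO1 in these ratios was not tested. There is 1 library on each side, so the differences have no replicate check and no p-value, and log2 ratios of CPM + 1 are given where either library reached 5 CPM. Members were mostly lower in Kelly: 35 of 47 had a negative ratio, with a median of -0.37 against -0.03 over 12387 genes. Of those 12387 genes, 6340 had a negative ratio. With library totals or RLE factors 32 members were negative, since MCM2, POLD1 and FEN1, all close to 0, turned positive. At least 2-fold lower were 6 members (MCM4, MCM7, GINS1, RRM1, CCNE2 and UHRF1) and at least 2-fold higher was 1, CCNE1. Over all genes 13.4% were at least 2-fold lower and 15.3% at least 2-fold higher. Kelly lay below all 5 BE2C libraries for 32 members and above all 5 for 10, where these places held for 36.7% and 41.1% of all genes. With library totals these counts were 28 and 10, and with RLE factors 29 and 9.

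RRM1 had the lowest ratio of any member, with 588 CPM in parental cells (95% Poisson interval 581 to 595) and 185 CPM in Kelly (181 to 188), 3.19-fold lower. These intervals cover counting error only. The other 4 BE2C libraries held between 656 and 685 CPM of RRM1, so Kelly was below each of them. MCM4 was at 382 CPM in parental cells and 128 CPM in Kelly, 2.98-fold lower, with 386 to 421 CPM in the modified libraries. MCM7 was 2.08-fold lower (351 and 169 CPM) and MCM3, the most abundant helicase subunit, 1.93-fold lower (497 and 258 CPM). MCM2 was the exception within the helicase at 238 CPM in parental cells and 236 CPM in Kelly. Those values were within counting error of each other (95% Poisson intervals 233 to 242 and 232 to 239.7 CPM), and their order turned with library totals (log2 ratio 0.016) and RLE factors (0.0054). Both were below the 313 to 353 CPM of MCM2 in the modified libraries. The other 5 subunits were lower in Kelly than in every BE2C library. MCM6 was at 138 CPM in parental cells and 85.2 CPM in Kelly, and MCM5 at 179 and 111 CPM. ORC1, which starts assembly of the origin recognition complex, went the other way, with 17.8 CPM in parental cells and 27.7 CPM in Kelly. The modified libraries held between 23.1 and 27.1 CPM of ORC1, all below the Kelly value.

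Per length, the helicase transcripts also differed in their balance. On a scale of CPM per kb of exon (union of GENCODE 29 basic exons), MCM3 was highest and MCM6 lowest in every group. In the vector libraries MCM3 was at 167 ± 1.72 (SD, n = 2), MCM7 at 137 ± 1.94, MCM2 at 96.2 ± 1.66, MCM4 at 95.01 ± 2.61, MCM5 at 69.5 ± 0.151 and MCM6 at 29.6 ± 0.284. MCM2 and MCM4 did not differ beyond their spread between libraries, and the other neighbours in this order did. That spread does not cover error in the exon lengths, so the order of the genes was not tested. MCM2 made up 16.2% of the 6 subunits' summed level with vector, 13.3% in parental cells and 23.6% in Kelly, while MCM4 made up 16.0%, 17.9% and 10.7%. The ratio of the highest to the lowest subunit was 5.64 with vector, 5.81 with LMO1, 4.202 in parental cells and 3.52 in Kelly.

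**Figure D4:**
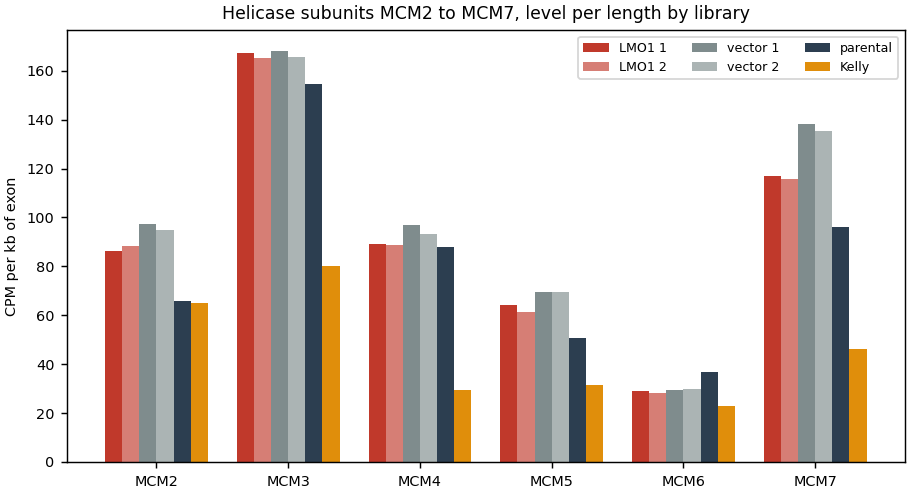
Level per length (CPM per kb of exon) of the 6 helicase subunit genes, 1 bar per library (red shades LMO1, grey shades vector, dark blue parental BE2C, orange Kelly). MCM3 is the highest and MCM6 the lowest subunit in each library, and the Kelly bar is the lowest of each subunit, except that for MCM2 the Kelly and parental bars do not differ beyond counting error.

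The other roles followed in part. All 6 helicase activation genes were lower in Kelly. The smallest gap was in GINS2, with 47.2 CPM in parental cells, 67.8 to 75.7 CPM in the modified libraries and 38.1 CPM in Kelly. The widest was in GINS1, another GINS complex subunit, with 92.7 CPM in parental cells, 77.3 to 82.2 CPM in the modified libraries and 43.0 CPM in Kelly. MCM10 was at 94.99 CPM in parental cells and 73.2 CPM in Kelly. The primase and polymerase genes were split. POLA1 was 1.95-fold lower (104 and 53.5 CPM), and its accessory subunit POLA2 was 1.61-fold higher (29.8 and 47.8 CPM, with 22.6 to 28.4 CPM in the modified libraries). PRIM2 was at 26.5 and 30.0 CPM, with 31.6 to 39.3 CPM in the modified libraries. POLE was at 292 CPM in parental cells and 180 CPM in Kelly. PCNA was 1.89-fold lower (202 and 107 CPM) and RFC1, the large clamp loader subunit, 1.68-fold higher (86.7 and 146 CPM, with 83.0 to 95.4 CPM in the modified libraries). LIG1 was at 87.1 and 90.9 CPM and FEN1 at 72.9 and 72.6 CPM, where the modified libraries held 90.2 to 97.7 CPM of FEN1. RPA1, the large subunit of the single-strand binding complex, had 170 CPM in parental cells and 118 CPM in Kelly, with 96.0 to 102 CPM in the modified libraries. RPA2 had 50.8 CPM in parental cells and 57.9 CPM in Kelly, with 47.01 to 50.5 CPM in the modified libraries. RPA3, the smallest subunit, had 52.7 and 41.0 CPM, with 75.3 to 88.5 CPM in the modified libraries. Kelly thus lay within the BE2C range for RPA1, above it for RPA2 and below it for RPA3. UHRF1 was 2.22-fold lower (179 and 80.6 CPM, with 185 to 205 CPM in the modified libraries). CLSPN was at 54.5 and 59.5 CPM, and DTL at 155 and 119 CPM, with 140.4 to 149.6 CPM of DTL in the modified libraries.

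The cyclin E genes went opposite ways. CCNE1 was at 3.77 CPM in parental cells (95% Poisson interval 3.24 to 4.36) and 16.1 CPM in Kelly (15.1 to 17.1), 4.26-fold higher, while CCNE2 was 2.40-fold lower (27.5 and 11.4 CPM). The modified libraries held 3.62 to 4.92 CPM of CCNE1 and 22.5 to 25.05 CPM of CCNE2, so Kelly was above all 5 BE2C libraries for CCNE1 and below all 5 for CCNE2. Per length, CCNE1 was 18.5% of the summed cyclin E level in parental cells, 21.0% to 24.7% in the modified BE2C libraries and 69.9% in Kelly. E2F1 was 1.96-fold lower in Kelly (119 and 60.9 CPM) and E2F2 was at 49.9 and 44.9 CPM. For ribonucleotide reductase, RRM1 was 3.10 times RRM2 per length in parental cells and 1.24 times in Kelly, where RRM2 was at 172 CPM against 218 CPM.

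**Figure D5:**
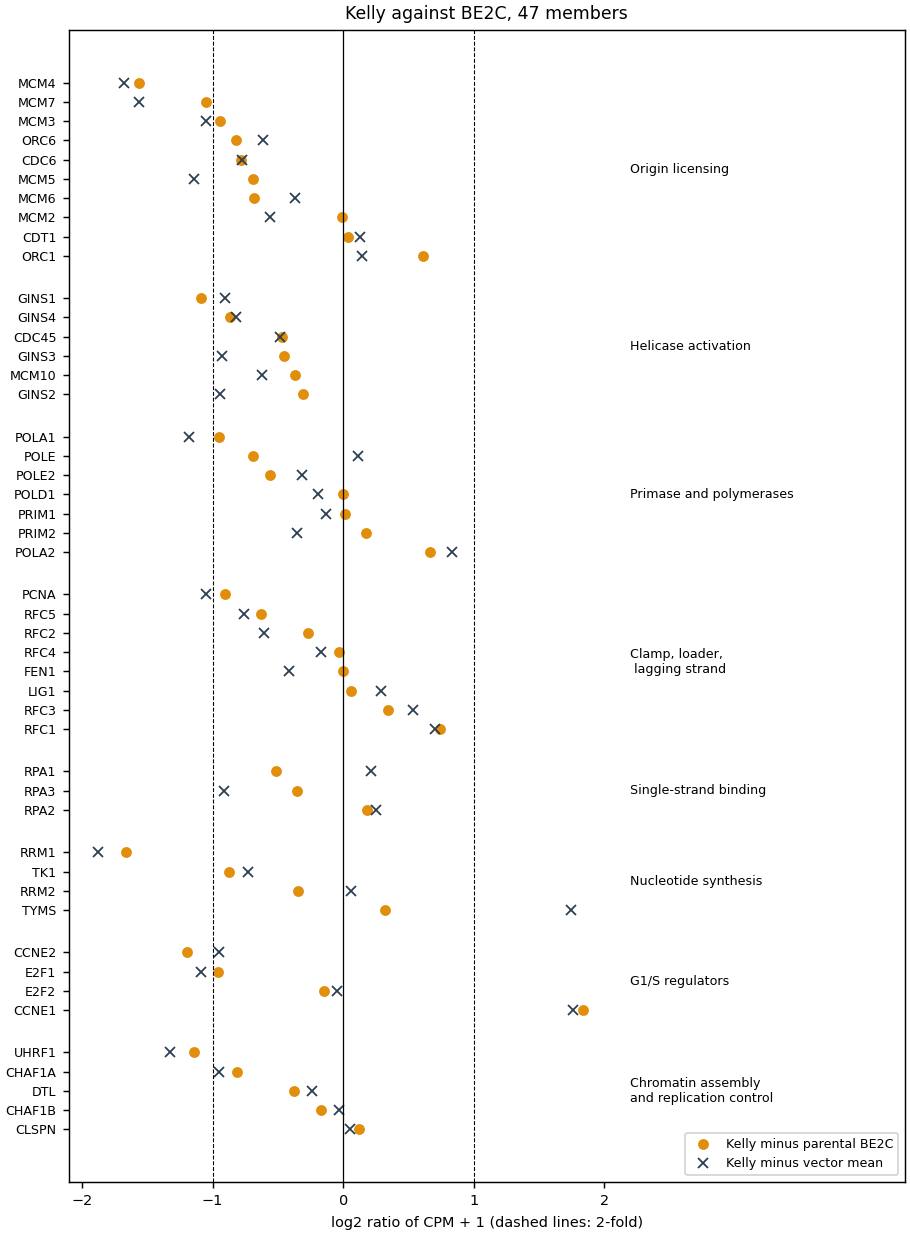
Log2 ratio of CPM + 1 for the 47 members in Kelly against the parental BE2C library (circles) and against the mean of the 2 vector libraries (crosses), grouped by role, with dashed lines at 2-fold. Most points lie left of 0, RRM1 and MCM4 farthest, and CCNE1 lies past 2-fold on the right with either BE2C reference.

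With the vector mean in place of the parental library, 9 members were at least 2-fold lower in Kelly and 2 higher, against 15.2% and 21.7% of all genes. MCM4, MCM7, RRM1 and UHRF1 were among the lower genes with both references, as CCNE1 was among the higher. MCM3, MCM5, PCNA, POLA1 and E2F1 passed 2-fold only against vector, and GINS1 and CCNE2 only against parental cells. The sign of the ratio turned for POLE (-0.69 against parental cells and 0.11 against vector), RPA1 (-0.52 and 0.21), RRM2 (-0.34 and 0.06), PRIM2 (0.17 and -0.35) and PRIM1 (0.01 and -0.13), the 5 members for which Kelly lay within the BE2C range. TYMS, at 29.5 CPM in Kelly, had a log2 ratio of 1.74 against vector and 0.32 against parental cells. Of the lists of other genes, 32 of 40 other replication genes and 37 of 45 mitosis genes had negative ratios against parental cells, with medians of -0.48 and -0.64. The other lists lay nearer 0. Negative were 15 of 25 S-phase repair and DNA methylation genes (median -0.17). Of the 31 other E2F, RB and G1/S kinase genes 21 were negative (median -0.08). Over all genes 6340 of 12387 ratios were negative. ASF1B was at 38.0 CPM in parental cells and 8.19 CPM in Kelly, with 40.1 to 49.1 CPM in the modified libraries. KIF20A, a mitotic kinesin, was at 203 and 60.7 CPM, with 279 to 319 CPM in the modified libraries.

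The third comparison sets parental BE2C against the vector mean, the same line in separately labelled samples, and shares the vector libraries with the LMO1 comparison. Of the 46 members that reached 5 CPM in either (all but CCNE1), 1 was at least 2-fold higher in parental cells and 0 were at least 2-fold lower, against 8.84% and 2.58% of all genes. The 1 was TYMS, at 23.4 CPM in the parental library and 8.06 and 8.17 CPM with vector, 2.89-fold higher. POLE was 1.75-fold higher (292 against 166 and 167 CPM) and RPA1 1.66-fold higher (170 against 102 CPM in both vector libraries). MCM6 (138 against 110 and 111 CPM), CCNE2 (27.5 against 22.5 and 23.7 CPM) and LIG1 (87.1 against 71.5 and 76.7 CPM) were the highest of their roles at smaller ratios. The lowest members were GINS2 (47.2 against 75.7 and 72.2 CPM, log2 ratio -0.64), RPA3 (-0.56), MCM2 (-0.55), PRIM2 (-0.52) and MCM7 (-0.51). For MCM2, MCM5 and MCM7 the parental level was also below both LMO1 libraries, at 238, 179 and 351 CPM. Their log2 ratios of parental to vector were -0.55, -0.45 and -0.51, beside -0.13, -0.14 and -0.23 for LMO1 against vector, and the difference between these was not tested. Over the members the median was -0.09 and 20 of 46 ratios were positive. Over all genes the median was 0.05 and 6427 of 11727 were positive.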

How the data were processed

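Stranded total RNA libraries were sequenced paired-end on a HiSeq, per the labels' protocols. The authors deposited 1 table of raw read counts per gene, in whole numbers. TopHat2 2.0.6, HTSeq and hg19 are named, per the submitters' processing notes, and the annotation, strand setting and any filter are not given in the sources used here. The LMO1 and vector libraries (2 each) were tested in edgeR 4.0.16 under R 4.3.3 (quasi-likelihood test, TMM, filterByExpr, Benjamini-Hochberg adjustment over 15480 genes, threshold 0.05). No replicate block was used, since the numbers did not pair the libraries. SE is the log2 fold change over the square root of F. Single libraries were compared by log2 ratios of CPM + 1 where either side reached 5 CPM, the vector side being the mean of the 2 log2 values, with 2-fold described as apart. limma 3.58.1 (voom), DESeq2 1.42.0, other scalings and filters and left-out libraries were tried as alternatives, and the fit was tested on simulated data. Replicates were compared first: the chi-square over degrees of freedom was 2.84 between the LMO1 libraries and 2.70 between the vector libraries, so none was a repeat deposit. Every member was accounted for, with values in every library for called members and, in each role, for the most abundant member and those with the highest and lowest ratios in Kelly against parental and in parental against vector. From each list of other genes, up to 3 called genes with the lowest adjusted p were named. The members, the lists and the rule were chosen with earlier results of these data known. Levels per length used GENCODE 29 exons (GRCh38), not the hg19 annotation of the counts. Depth limits the precision most for CCNE1 and TYMS, the members with the lowest mean CPM.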

Additional observations from a re-analysis of the deposited data

How the results depend on the processing

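With the settings of the report 0 members were called higher with LMO1. With library totals only, 3 were (PCNA, LIG1, E2F2), and 2 were when 5 CPM in 2 libraries was required (PCNA, LIG1). Library totals moved the whole table: over all 15480 genes 2735 were called higher and 1853 lower, against 2463 and 2334. The median log2 fold change of all genes was then 0.0275, against 0.00083. With the 5 CPM filter 2166 of 11495 genes were called higher and 1983 lower. With both libraries of each group kept, members called lower numbered 4 to 6 against 6. They were 4 with library totals, with the 5 CPM filter and with DESeq2, where MCM4 and POLA1 were lost each time (adjusted p for MCM4 0.125, 0.064 and 0.072, for POLA1 0.128, 0.0794 and 0.17). Leaving out 1 library kept the 6 called members negative, with log2 fold changes from -0.12 to -0.06 for MCM4 and -0.18 to -0.07 for POLA1. Where this left a group with 1 library, that library was assumed to vary like the other group. A replicate block gave the same 6 members lower and 0 higher, and changed no other member's call. The replicate numbers did not pair the libraries (correlation of deviations -0.02). Over all 15480 genes 4797 were called by edgeR, 2334 of them lower, and 2970 by DESeq2, 1431 of them lower. Direction changed in members near 0 and, without LMO1 replicate 1, in TYMS, whose value of 0.18 is among the highest. MCM3 was at -0.0011 with RLE factors, -0.0033 without a filter, -0.0039 with all 6 libraries and -0.0011 with DESeq2. With library totals and with the 5 CPM filter in turn, CDT1 was at 0.0192 and 0.0103, CDC45 at 0.0210 and 0.0119, RFC1 at 0.0204 and 0.0113, RFC2 at 0.0129 and 0.0040, and RRM1 at 0.0125 and 0.0035. With 1 library left out in turn, log2 fold changes ran from -0.0190 to 0.0046 for CDC45, -0.0227 to 0.0028 for CDT1, -0.0698 to 0.0076 for GINS1, -0.0128 to 0.0111 for MCM3, -0.0919 to 0.140 for ORC1, -0.0714 to 0.114 for POLE2, -0.102 to 0.0957 for RFC1, -0.0427 to 0.0096 for RFC2, -0.116 to 0.0416 for RFC3, -0.0267 to 0.0624 for RPA2, -0.0449 to 0.0121 for RRM1 and -0.0967 to 0.430 for TYMS. In Kelly 2 members were at least 2-fold higher with the vector mean, or either vector library alone, in place of the parental library, against 1. Other pseudocounts, scalings and filters left the counts past 2-fold in Kelly and in parental cells as they were, but library totals and RLE factors each took the negative Kelly ratios from 35 to 32. MCM2 was then at 0.016 and 0.0054, POLD1 at 0.0264 and 0.0159 and FEN1 at 0.0229 and 0.0124.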
